A study of Xenopus tropicalis with 26 samples.

Results

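E2f1 mRNA was supplied to embryos of the frog Xenopus tropicalis that also carried an antisense morpholino oligonucleotide (MO) against E2f1, and their polyA RNA was compared at stage 7, a blastula stage shortly before the mid-blastula transition, with that of embryos given the MO alone. The comparison used 4 of the 26 libraries of the study, picked by their column names: 2 of E2f1 MO with E2f1 mRNA and 2 of E2f1 MO. All 4 carry the MO, so the label that separates them is the injected E2f1 mRNA. Other groups, with 2 libraries each, are set beside these where a value needs them: untreated wildtype at stages 6, 7 and 8, stage 7 MO embryos given deltaDBD mRNA (by its name an E2f1 without its DNA-binding domain), and stage 8 MO embryos with and without E2f1 mRNA. The labels used here name neither the kind of MO (translation or splice blocking), nor doses, clutches or the number of embryos in a library. What the p-values weigh is therefore the scatter between replicate libraries, estimated over all 26, and that scatter may be technical. The remaining groups were given Cdkn1a mRNA with or without the MO, or the MO and deltaDBD mRNA at stage 8. They enter the fit but none of the comparisons.

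E2F1 is a transcription factor that binds DNA together with a DP partner and is held inactive by pocket proteins of the retinoblastoma (RB) family until cyclin-dependent kinases phosphorylate them. It is best known for activating genes of DNA replication and cell division. Early frog embryos divide rapidly on RNA stored in the egg and transcribe little of their own genome. At the mid-blastula transition the cell cycle lengthens, zygotic genes are transcribed broadly and stored maternal RNAs are cleared.

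The 4 libraries held between 16653934 and 18568027 counted fragments, within the range of 14071614 to 19032710 over all 26. Of 28778 genes in the table, 12883 had enough counts to be tested. Replicates of 12 groups differed from each other by 1.82 to 2.28 times what counting alone gives (chi-square per degree of freedom), and those of the stage 8 MO group by 12.6 times, so that group stands apart. Levels are in CPM (counts scaled to library size and composition), which can be compared between libraries for a gene but not between genes. The samples are whole embryos, and egg and early embryo markers were abundant in all 4 libraries, at a summed 6343 to 6413 CPM with the MO and 7966 to 8104 CPM with E2f1 mRNA, with 1 of 18 markers at 0 in each group. Markers of differentiated tissues summed to 188 to 192 CPM with the MO and 215 to 226 CPM with E2f1 mRNA (16 and 20 of 31 at 0), most of it from mbp. Testis markers summed to 69.7 to 72.3 and 58.2 to 59.8 CPM (1 and 3 of 8 at 0), most of it from odf2, and ovarian follicle markers to 1.399 to 1.82 and 1.43 to 2.09 CPM (7 and 9 of 13 at 0). The part of these cells in the results was not tested.

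The injected transcript was present as labelled. By its v10 position, e2f1 lies on chromosome 10, 41691473 to 41704773, and it was at 415 and 438 CPM in the 2 MO libraries and at 3038 and 2987 CPM with E2f1 mRNA, a log2 fold change of 2.82 ± 0.04 (SE). Stage 7 wildtype embryos were at 447 and 434 CPM and embryos with deltaDBD mRNA at 2145 and 2081 CPM. The transcript was thus far above its wildtype level, and reads of injected and endogenous e2f1 are not told apart. For cdkn1a (chromosome 2, 54652721 to 54677604), an inhibitor of cyclin-dependent kinases, the MO libraries were at 5.02 and 4.14 CPM and those with E2f1 mRNA at 2.87 and 1.903 CPM. These ranges did not overlap, as in 2953 of all 2957 genes called lower. The gene was lower with E2f1 mRNA (−0.94 ± 0.19, adjusted p = 0.000159, quasi-likelihood test of edgeR). Where levels of a gene are joined by "against", those of the MO libraries come first.

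With E2f1 mRNA, 2892 genes were higher than with the MO alone (22.4% of those tested) and 2957 were lower (23%), at an adjusted p under 0.05. Most of these changes were small: the median size was 0.33 on the log2 scale, and from the tenth to the ninetieth percentile sizes ran from 0.18 to 0.77. The larger changes went mostly down. Of those tested, 60 genes (0.466%) were 2-fold or more higher and 335 (2.6%) were 2-fold or more lower. The median of the 335 was −3.65 as fitted, and −2.75 when the 79 that had no count in either E2f1 mRNA library, with another 67 at 1 to 3 counts, were held at what those counts allow. The median over all tested genes was −0.02, a value that the scaling itself keeps small. Changes are thus relative to that scaling and do not give absolute amounts of RNA. A change in amount is not told apart here from a change in capture by polyA selection, nor fewer cells of a type from less RNA per cell.

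**Figure D1:**
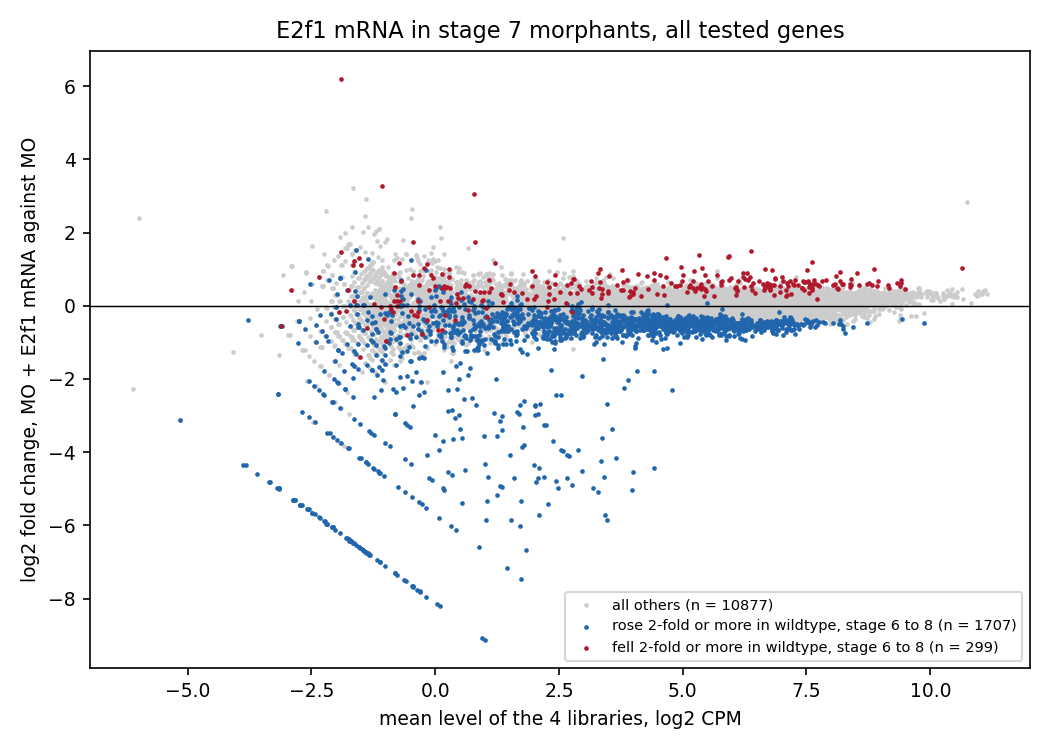
Each point is a tested gene, with its mean level over the 4 libraries (log2 CPM) on the horizontal axis and its fitted log2 fold change, E2f1 mRNA against MO alone at stage 7, on the vertical axis. Blue points (1707 genes) gained and red points (299 genes) lost RNA by 2-fold or more from stage 6 to stage 8 of wildtype, and they lie mostly below and above 0; the straight diagonals at the lower left are genes with few or no counts with E2f1 mRNA, whose fitted values are no bounds.

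The direction of change followed what each gene does in wildtype development. The wildtype libraries of stages 6 and 8 take no part in the contrast at stage 7. Both contrasts come from 1 fit with shared estimates of the spread, however, so a gene with little scatter is called more easily in both. Of 4687 genes that rose in wildtype from stage 6 to stage 8 (36.4% of those tested), 2828 (60.3%) were lower with E2f1 mRNA and 14 (0.299%) were higher. Of 4196 genes that fell in wildtype (32.6%), 2759 (65.8%) were higher and 3 (0.0715%) lower. Among the 4000 genes with no called wildtype change, 119 (2.98%) were higher and 126 (3.15%) lower. Median log2 fold changes were −0.30, 0.24 and −0.01 in these classes. Among 1707 genes that rose 2-fold or more (13.3% of those tested), 1221 (71.5%) were lower with E2f1 mRNA and 1 was higher. Among 299 that fell 2-fold or more (2.32%), 191 (63.9%) were higher and none was called lower by edgeR (none at an unadjusted p under 0.05, and none in DESeq2).

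The size of the change grew with the size of the wildtype change. Genes that rose 1.4 to 2-fold in wildtype had a median of −0.29, those that rose 2 to 4-fold −0.48, and those that rose 4 to 16-fold −0.81. The 228 genes that rose 16-fold or more had a fitted median of −4.67, or −3.32 with 75 of them at their bound, and 204 of them were lower. On the other side, genes that fell 1.4 to 2-fold had a median of 0.30, those that fell 2 to 4-fold 0.52, and the 31 that fell 4-fold or more 0.91. Called genes were fewer in that last bin, 13 of 31. Between these sides, the 6378 genes that stayed within 1.4-fold in wildtype had a median of 0.02, with 15.7% higher and 9.71% lower.

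**Figure D2:**
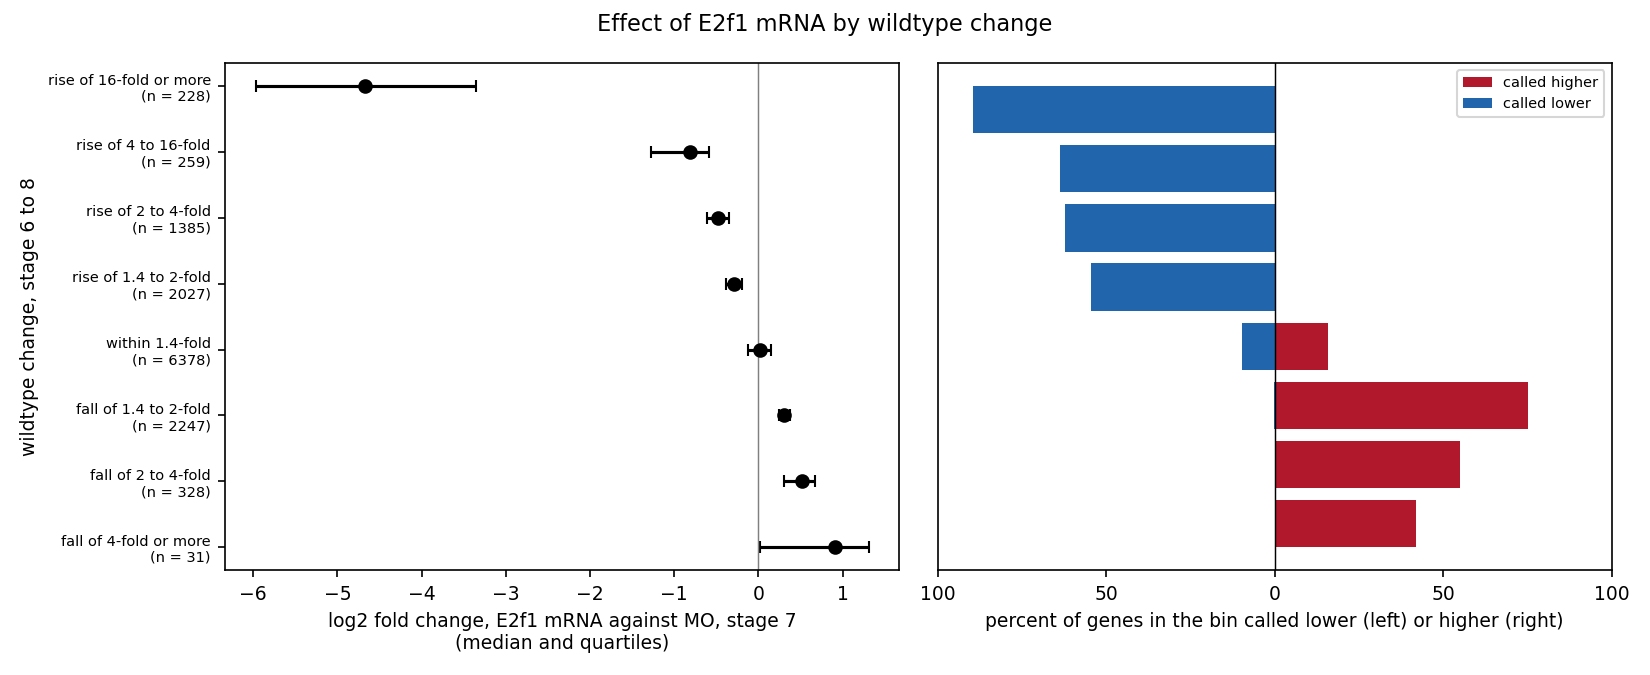
Genes are grouped by their wildtype change from stage 6 to 8 (vertical axis). The left panel gives the median (point) and quartiles (bars) of the log2 fold change with E2f1 mRNA at stage 7, from −4.67 for rises of 16-fold or more to 0.91 for falls of 4-fold or more; the right panel gives the percent of genes in each bin called lower (blue, leftward) or higher (red, rightward).

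Placed along the wildtype time course, where 0 is the mean of stage 6 wildtype and 1 that of stage 8, the stage 7 MO libraries stood at 0.826 and 0.833 and the libraries with E2f1 mRNA at 0.310 and 0.297. Stage 7 wildtype stood at 0.448 and 0.450, between them. With deltaDBD mRNA the libraries were at 0.834 and 0.839, beside the MO alone. The position is a slope over 2006 genes that change 2-fold or more, so it is a summary and not a test, and 2 libraries against 2 cannot give an exact permutation p below 0.333. Genes that fall in wildtype placed the same libraries less far apart (both MO libraries at 0.749, E2f1 mRNA at 0.360 and 0.357) than genes that rise (0.831 and 0.839, against 0.307 and 0.293).

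**Figure D3:**
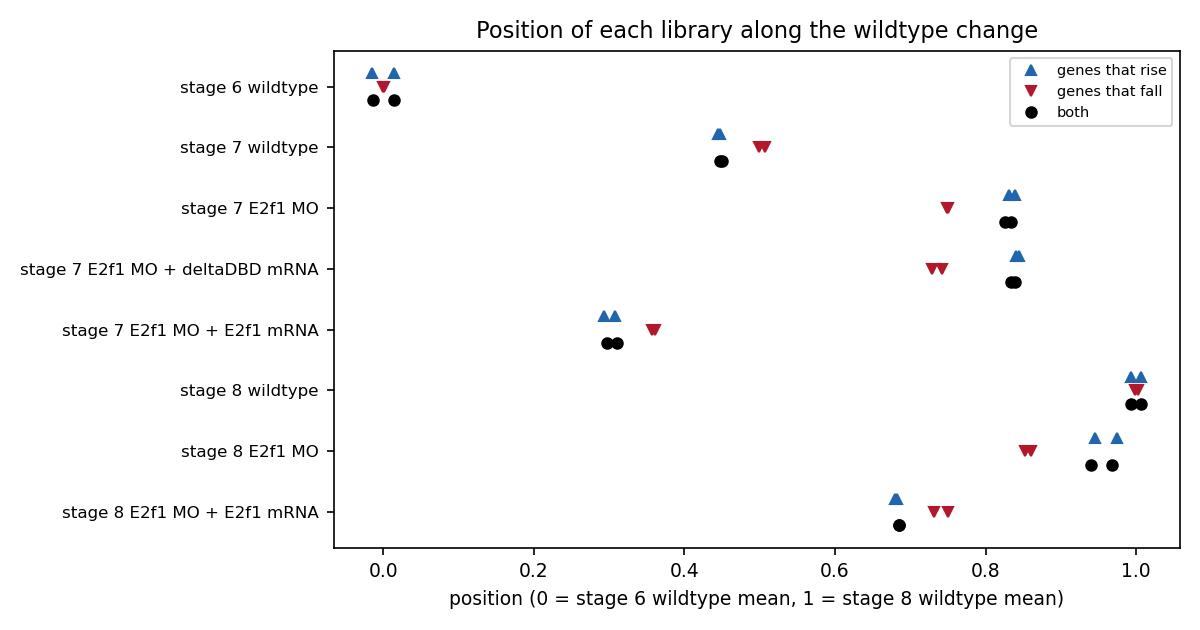
Position of each library (2 points per group and symbol) between the stage 6 (0) and stage 8 (1) wildtype means, on genes that rise (blue), that fall (red) or both (black). Stage 7 E2f1 mRNA libraries lie at 0.310 and 0.297, below stage 7 wildtype at 0.448 and 0.450, and the stage 7 MO libraries lie at 0.826 and 0.833.

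The Nodal ligands and siamois genes, which start the signalling that forms mesoderm, endoderm and the dorsal organizer, were lower throughout. All 8 tested members, of 10 in the table, were called lower (100%, beside 23% of all tested genes; median −2.96, or −2.63 with 1 member at its bound). nodal3.1, a Nodal ligand of the organizer (chromosome 3, 132081088 to 132083628), was at 9.19 and 7.35 CPM with the MO and at 0.717 and 1.01 CPM with E2f1 mRNA (−3.26 ± 0.24). Stage 7 wildtype embryos had 2.78 and 2.97 CPM, in between. nodal6, another mesendoderm-inducing ligand of the family, went from 6.04 and 5.89 to 0.955 and 1.01 CPM (−2.59 ± 0.27), and nodal5 from 1.603 and 1.05 to 0.418 and 0.1903 CPM (−2.09 ± 0.52). The homeobox genes sia1 and sia2, direct targets of maternal Wnt signalling that switch on organizer genes, were also down: sia2 stood at 7.91 and 7.05 against 1.31 and 1.01 CPM (−2.67 ± 0.24). For sia1 the values were 5.24 and 3.498 against 0.418 and 0.317 CPM (−3.55 ± 0.39). lefty, a secreted inhibitor of Nodal signals and itself a Nodal target, was at 5.34 and 4.61 CPM with the MO and at 0.119 and 0.1903 CPM with E2f1 mRNA (−4.95 ± 0.43). gdf3, a TGF-beta ligand with RNA already present at stage 6 of wildtype (8.31 and 8.16 CPM), was at 16.4 and 14.6 CPM with the MO and 6.15 and 5.07 CPM with E2f1 mRNA (−1.46 ± 0.16). The member nodal was near the limit of detection, at 0.214 and 0.233 CPM against no count in either library, at least 2.42-fold lower, and its call was lost when any of the 4 libraries was left out.

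Organizer genes, which pattern the dorsal side, were mostly lower as well. Of 17 tested (22 in the table), 14 were lower and 1 was higher (82.4 and 5.88%, beside 23 and 22.4% of all genes). The fitted median was −4.95, or −2.97 with 6 at their bound. admp, a BMP-like ligand made in the organizer (chromosome 1, 104483737 to 104487225), was at 8.17 and 7.75 CPM with the MO and 0.358 and 0.1903 CPM with E2f1 mRNA (−4.81 ± 0.27). This compares with 0.428 and 0.486 CPM in stage 7 wildtype and 17.6 and 17.97 CPM at stage 8. The notochord homeobox gene not was at 34.4 and 32.1 against 9.91 and 9.45 CPM (−1.78 ± 0.10). Goosecoid (gsc), a homeobox repressor of the organizer, was at 0.908 and 0.6995 CPM with the MO and had no count with E2f1 mRNA, at least 8.76-fold lower. foxa4, a forkhead factor of the axial midline, was likewise without counts, at least 19.3-fold below its 2.08 and 1.46 CPM. fst (follistatin), which binds activin and BMPs, was 46.2-fold lower (counting interval 7.93 to 1861). The member that went the other way, tsku, encodes a secreted signalling modulator stored in the egg, and it rose from 343 and 328 to 409 and 427 CPM (0.32 ± 0.04).

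Ventral genes were mostly lower too. Of 24 tested Ventx and BMP pathway genes (30 in the table), 14 were lower and 5 higher (median −0.70). The share lower was 58.3%, beside 23% of all genes, and the share higher 20.8%, near the 22.4% of all genes. ventx2.2 (chromosome 7, 26877234 to 26879212), a ventral homeobox repressor of organizer genes, had 22.3 and 20.1 CPM with the MO and 0.418 and 0.381 CPM with E2f1 mRNA (−5.704 ± 0.22). Its neighbour in the family, ventx2.1, had 10.1 and 8.98 against 0.179 and 0.254 CPM (−5.42 ± 0.32). bmp4, the ligand that induces ventral fate, was at 7.05 and 5.95 against 0.239 and 0.698 CPM (−3.798 ± 0.32), and id3, a BMP target that blocks basic helix-loop-helix factors, at 26.4 and 25.9 against 7.405 and 7.74 CPM (−1.79 ± 0.12). Among the 5 higher members was bmp1, a protease that cleaves the BMP inhibitor Chordin, which rose from 33.3 and 36.5 to 69.99 and 65.6 CPM (0.96 ± 0.06). bambi, a pseudoreceptor, rose by 0.50 ± 0.05 and smad1, the pathway's transcription factor, by 0.24 ± 0.04. The type I receptor gene bmpr1a, whose RNA builds up in wildtype (64.7 CPM at stage 6 and 184 CPM at stage 8), was lower (198 and 198 against 126 and 130.0 CPM, −0.62 ± 0.05).

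Regulators of the germ layers were lower on both the vegetal and the animal side. Of 19 mesendoderm transcription factors tested (29 in the table), 11 were lower and 1 higher (57.9 and 5.26%, beside 23 and 22.4% of all genes). Their fitted median was −2.63, or −1.29 with 4 at their bound. The higher member was tbx6, whose call was lost with DESeq2, without E2f1 mRNA replicate 1 and without MO replicate 1. mix1, a homeobox gene induced by Nodal, had 83 and 62 counts in the MO libraries and none with E2f1 mRNA, at least 43.8-fold lower. eomes, a T-box factor of mesendoderm, was at 5.66 and 5.83 against 0.836 and 0.634 CPM (−2.95 ± 0.28). sox17a, an endoderm determinant, was at 3.099 and 2.33 against 0.239 and 0.1903 CPM (−3.62 ± 0.43), and sox17b.1 at 2.99 and 3.15 against 0.537 and 0.381 CPM (−2.71 ± 0.34).

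Of 35 ectoderm and neural plate factors tested (45 in the table), 21 were lower and 3 higher (60 and 8.57%, beside 23 and 22.4% of all genes). Their median was −1.65. sox2 (chromosome 5, 108035485 to 108037707), a neural plate and pluripotency factor, was at 8.71 and 8.103 CPM with the MO and at 0.179 and 0.127 CPM with E2f1 mRNA (−5.71 ± 0.33). The stage 7 wildtype libraries, at 1.12 and 0.8498 CPM, lay well below the MO libraries and above those with E2f1 mRNA. irx1, an Iroquois gene of the neural plate, was 61.9-fold lower (counting interval 20.9 to 303), foxd4l1.1, a neural forkhead factor, 43.5-fold (14.6 to 213) and foxi4.2, an ectodermal forkhead factor, 114-fold (31.3 to 948). klf17 (chromosome 4, 91722837 to 91725856), a Krüppel-like factor, fell from 45.7 and 45.8 to 9.32 and 9.13 CPM (−2.31 ± 0.11). That is near the 10.2 and 12.1 CPM of stage 7 wildtype. hes4, a repressor of the hairy and enhancer of split family, was at 6.89 and 7.29 against 1.02 and 1.08 CPM (−2.75 ± 0.25). The 3 higher members have RNA at stage 6 already: sox3 at 644 and 626 against 738 and 756 CPM (0.23 ± 0.03), foxi2, an egg-stored activator of ectodermal genes, up by 0.29 ± 0.04, and klf2, up by 0.13 ± 0.05, whose call was lost with DESeq2, with no count filter and without 3 of the 4 libraries in turn.

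Pluripotency factors split by their wildtype course, with all 11 members that rise lower and 4 of 5 that fall higher. The gene lists overlap, so their counts are not separate. This one shares sox2, sox3, klf17 and ventx2.1 with lists above, and lefty is in both the Nodal and the organizer list. Of the 19 pluripotency factors, all tested, 12 were lower in all and 4 higher (63.2 and 21.1%, beside 23 and 22.4% of all genes). Of the POU factors, pou5f3.3, the form stored in the egg, rose from 796 and 761 to 969 and 997 CPM (0.34 ± 0.04), while pou5f3.1, the zygotic form, was 36.3-fold lower (counting interval 9.71 to 305). pou5f3.2, present in the egg and rising later, fell mildly (230.4 and 222 against 186 and 198 CPM, −0.24 ± 0.05). foxh1, the stored partner of Smad2 in Nodal signalling, rose by 0.36 ± 0.03 (897 and 889.8 against 1138 and 1149.7 CPM).

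Among 41 Wnt and FGF ligands and feedback genes tested (50 in the table), 21 were lower and 7 higher (51.2 and 17.1%, beside 23 and 22.4% of all genes). Their median was −0.38. dusp6, a phosphatase induced by FGF signalling, was at 9.19 and 9.21 against 2.15 and 1.205 CPM (−2.44 ± 0.21), and fgf8, a mesodermal ligand, was 26.6-fold lower (counting interval 8.81 to 131). axin2, a feedback inhibitor and target of Wnt signalling, fell from 84.4 and 82.5 to 45.7 and 48.7 CPM (−0.82 ± 0.09) and spry2, an FGF feedback inhibitor, from 50.3 and 49.8 to 30.04 and 33.4 CPM (−0.66 ± 0.08). The ligand gene wnt11b, whose RNA is placed vegetally in the egg, rose from 38.8 and 37.7 to 63.4 and 65.96 CPM (0.76 ± 0.06). dvl2, fzd7 and ctnnb1, which carry the Wnt signal from the membrane to the nucleus, rose by 0.37 ± 0.05, 0.32 ± 0.05 and 0.17 ± 0.03. Of 35 tested epithelial and early signalling genes, a list partly drawn from earlier results of these data, 15 were lower and 9 higher. As shares, 42.9% were lower and 25.7% higher, the second near that of all genes. lpar6, a receptor for lysophosphatidic acid, was at least 22.96-fold lower. Among the 9 higher members were the adhesion genes epcam (0.33 ± 0.03), the claudin gene cldn4 (0.32 ± 0.03) and cdh3, the maternal cadherin (0.20 ± 0.03).

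**Figure D4:**
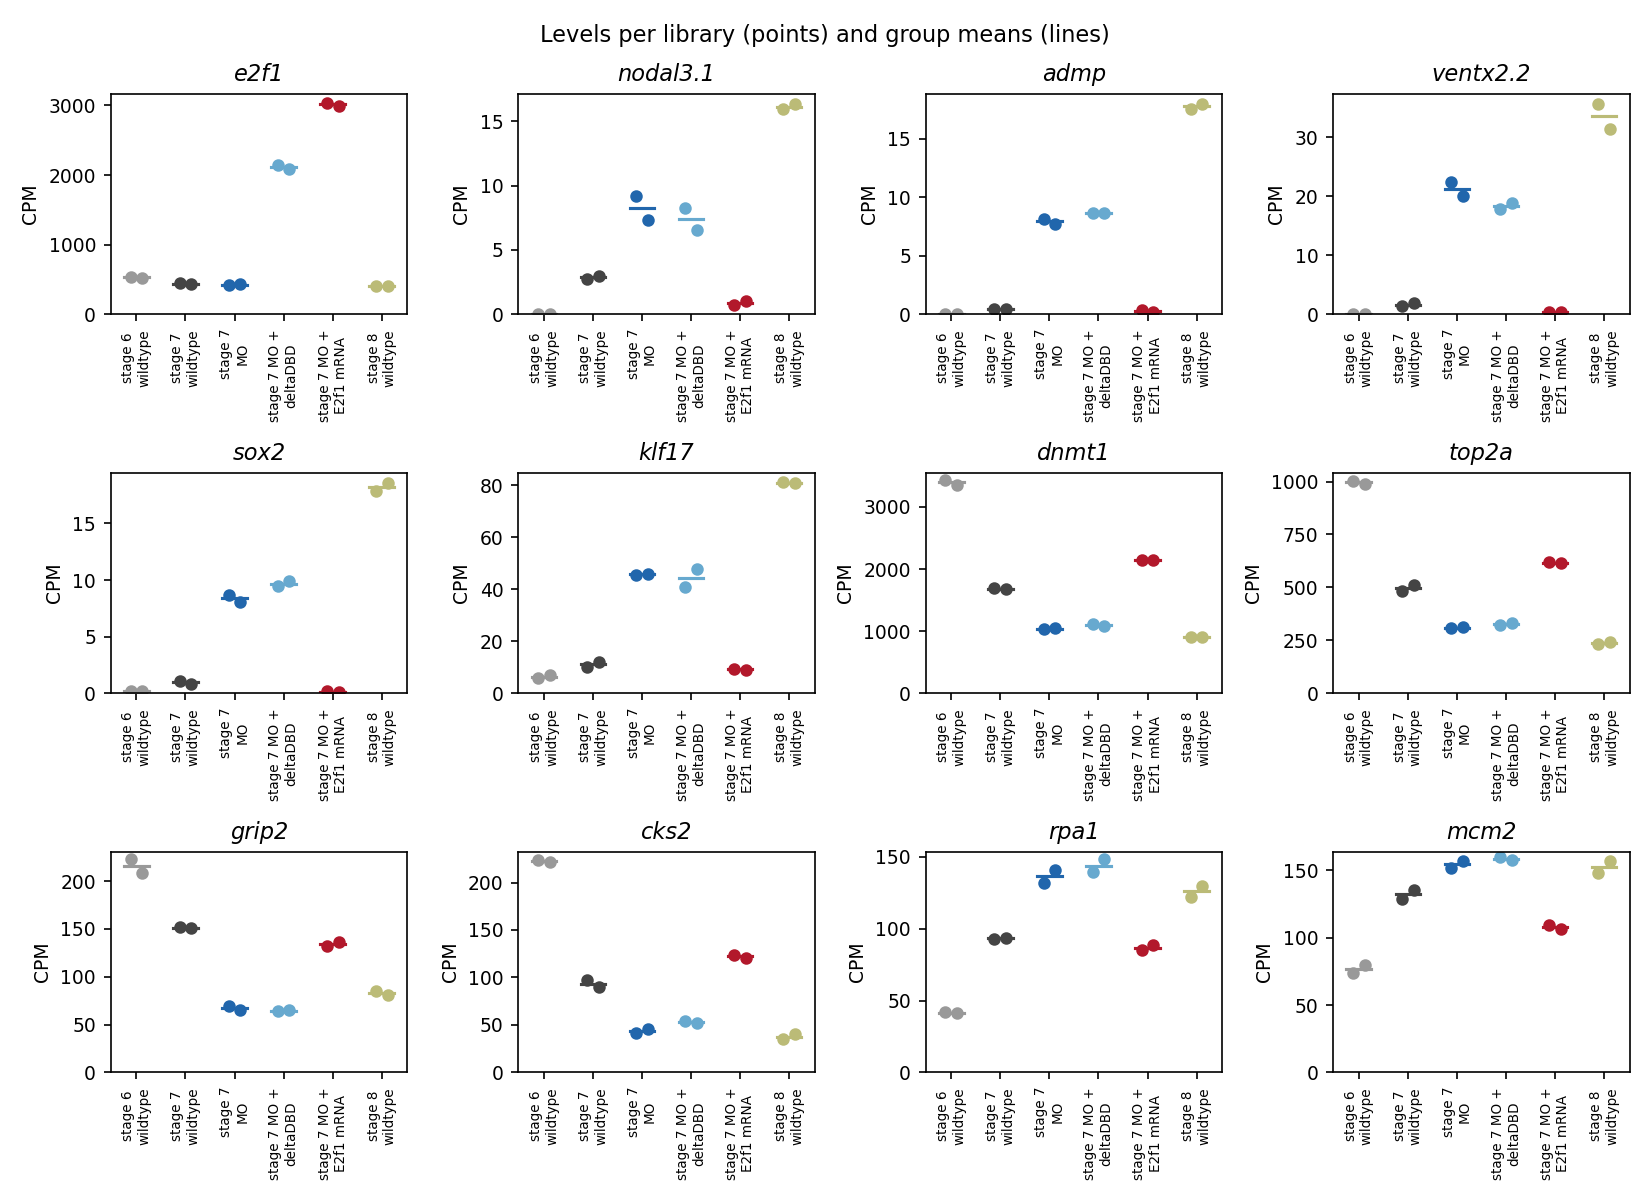
CPM of each library (points) and group means (lines) for 12 genes in 6 groups, each panel with its own vertical axis from 0. In nodal3.1, admp, ventx2.2, sox2 and klf17 the stage 7 E2f1 mRNA libraries (red) lie below the stage 7 MO libraries (blue), in dnmt1, top2a, grip2 and cks2 above them, and in the replication genes rpa1 and mcm2 below.

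Zinc finger genes with a znf symbol made up a further large group. Of 132 tested, 46 were lower and 20 higher (34.8 and 15.2%, beside 23 and 22.4% of all genes). Of the 75 that rise in wildtype 60% were lower, near the 60.3% of all genes that rise. Of the 29 that fall 69.0% were higher, beside 65.8% of all genes that fall. Several of the steep falls lay on chromosome 6. znf470 was at 41.04 and 40.3 against 1.49 and 2.28 CPM (−4.43 ± 0.14), znf350 at 23.8 and 23.6 against 1.25 and 1.395 CPM (−4.16 ± 0.16), and znf33b at 17.2 and 18.1 against 0.537 and 0.571 CPM (−4.97 ± 0.26). Stage 7 wildtype embryos had 4.92 and 6.49 CPM of znf470, above the E2f1 mRNA libraries and below the MO libraries. Fragments that map to several places were not counted, so near-identical copies are uncertain. Chromosome 6 held 63 of the 335 strongly lowered genes, 5.47% of its tested genes, against 2.6% for all chromosomes.

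The 335 genes that were 2-fold or more lower were short, and a single exon was more frequent among them than over all tested genes. Their median number of exons was 3, against 11 for all tested genes, and 57 of them had a single exon, against 309 of 12883 (2.40%). Their median genomic span was 4.53 kb, against 19.4 kb. A gene symbol was given for 59.7% of them and for 86.4% of all. In stage 6 wildtype 261 of them (77.9%) were under 0.5 CPM. Together they made up 0.148% of the RNA counted in MO embryos and 0.0258% with E2f1 mRNA. These shared features are a description, and their part in the result was not tested.

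The genes of replication and division, among which the best known targets of E2F1 are found, did not move as a block. They are taken here as gene families, and no set of E2F1 targets was tested. The 12 lists of cell cycle genes include e2f1, whose RNA was injected. Over these lists, those that rise in wildtype numbered 119, of which 93 were lower and none was called higher by edgeR (likewise none at an unadjusted p under 0.05 or in DESeq2). This is 78.2%, beside 60.3% of all genes that rise. Their median log2 fold change was −0.29, beside −0.30 for all genes that rise, so more were called but the typical change was no larger. Those that fall in wildtype numbered 144, of which 114 were higher and none was called lower (again none at an unadjusted p under 0.05 or in DESeq2). This is 79.2%, beside 65.8% of all genes that fall, with medians of 0.29 and 0.24. Of the 55 with no called wildtype change, 2 were higher and 4 lower. In the lists of origin, fork and nucleotide genes alone, 30 of 38 risers were lower (78.9%) and 29 of 37 fallers were higher (78.4%).

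Origin licensing and firing genes, which load and start the replicative helicase, were 15 higher and 8 lower of 33 tested (45.5 and 24.2%, beside 22.4 and 23% of all genes). dbf4b, an activator of the Cdc7 kinase, rose from 150.2 and 154 to 247 and 248 CPM (0.70 ± 0.04), cdc6, the helicase loader, from 971 and 946 to 1207 and 1226 CPM (0.34 ± 0.03), and mcm10 from 139.6 and 143 to 202 and 194 CPM (0.49 ± 0.05). The helicase subunits parted ways. mcm7 rose (1217 and 1166 against 1491 and 1535 CPM, 0.34 ± 0.03), while mcm2 (chromosome 4, 134742089 to 134755215) fell from 152 and 157 to 109.8 and 107 CPM (−0.51 ± 0.05) and mcm3 changed by −0.30 ± 0.05. In wildtype mcm7 falls from 1861 CPM at stage 6 to 1149 CPM at stage 8, whereas mcm2 rises from 76.5 to 152 CPM. Fork genes counted 8 higher and 13 lower of 32 (25 and 40.6%). The subunit of the single-strand binding protein rpa1 (chromosome 2, 36008023 to 36045087) was at 132 and 141 against 84.9 and 88.6 CPM (−0.65 ± 0.06), the polymerase subunit pole at 58.5 and 61.6 against 39.1 and 36.97 CPM (−0.66 ± 0.07), and pcna, the sliding clamp, at 58.6 and 65.6 against 44.8 and 42.7 CPM (−0.50 ± 0.12). timeless, of the fork protection complex, rose by 0.34 ± 0.04. Of 29 nucleotide synthesis genes 7 were higher and 10 lower: of ribonucleotide reductase, the small subunits rrm2.1 and rrm2.2 rose by 0.40 ± 0.04 and 0.31 ± 0.03, and the large subunit rrm1 fell from 164 and 172 to 115 and 116 CPM (−0.54 ± 0.08).

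E2F and pocket protein genes, the family of the injected factor, counted 5 higher and 7 lower of 21 (23.8 and 33.3%), not far from the 22.4 and 23% of all genes. The 5 include e2f1 itself, the injected transcript and the only member 2-fold or more higher. e2f5 rose by 0.29 ± 0.04 and rbbp7, a histone-binding RB partner, by 0.63 ± 0.08. mybl2 and lin9, of the MuvB complex with Myb, were lower (−0.54 ± 0.04 and −0.43 ± 0.04), as was e2f4, a repressive E2F (−0.35 ± 0.06). Among G1 regulators, 5 of 15 were higher and 4 lower (33.3 and 26.7%), likewise near those shares. ccne1 (cyclin E1), a textbook E2F target, was at 546 and 522 against 659.8 and 667 CPM (0.31 ± 0.03). Stage 7 wildtype had 600.3 and 588 CPM. cdk4 rose by 0.20 ± 0.05, and the inhibitor cdkn2d fell from 24.04 and 24.4 to 16.8 and 17.4 CPM (−0.50 ± 0.09).

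Checkpoint genes leaned downward: 15 of 25 were lower and 6 higher (60 and 24%, beside 23 and 22.4%). All 15 members that rise in wildtype were lower. brca2, a repair mediator, fell from 104 and 98.5 to 55.1 and 49.8 CPM (−0.94 ± 0.11), atr, a replication checkpoint kinase, from 66.4 and 68.1 to 49.8 and 46.5 CPM (−0.48 ± 0.08), and brca1 was also lower (−0.38 ± 0.05). Of those that went up, wee2, the egg's Wee1-like inhibitor of Cdk1, rose from 1083 and 1103 to 1457 and 1499 CPM (0.44 ± 0.03), and cdc25a, the phosphatase that opposes it, from 982 and 965 to 1209 and 1249 CPM (0.34 ± 0.04). chek1, the checkpoint kinase that acts at the mid-blastula transition, rose by 0.21 ± 0.04.

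Mitotic genes leaned upward. Of 19 cyclin, Cdk1 and Cks genes, 11 were higher and 5 lower (57.9 and 26.3%, beside 22.4 and 23% of all genes). cks2 (chromosome 1, 137846337 to 137849582), a Cdk-binding subunit, rose from 41.3 and 45.9 to 124 and 121 CPM (1.49 ± 0.13), above the 97.2 and 89.8 CPM of stage 7 wildtype. The cyclin genes ccna1, ccnb1 and ccnb2 rose by 0.42 ± 0.03, 0.40 ± 0.03 and 0.46 ± 0.04. Cyclins that rise in wildtype went down: ccnf from 40.8 and 47.04 to 24.1 and 24.6 CPM (−0.85 ± 0.14) and ccnb3 from 44.99 and 49.03 to 29.02 and 29.9 CPM (−0.67 ± 0.15). Genes of the anaphase-promoting complex and spindle checkpoint counted 16 higher and 5 lower of 29. fbxo43 (Emi2), its inhibitor in the egg, rose from 200.3 and 198 to 376 and 379.7 CPM (0.92 ± 0.04), cdca3 from 33.7 and 35.3 to 86.6 and 89.2 CPM (1.35 ± 0.10), and ube2c, its ubiquitin-conjugating enzyme, from 335 and 333 to 517 and 499 CPM (0.60 ± 0.06).

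Aurora, Polo and chromosomal passenger genes were 9 higher and 3 lower of 20. The background for this and the next counts is 22.4% higher and 23% lower over all tested genes. aurka and aurkb, kinases of the spindle and centromere, went from 117 and 130.3 to 234 and 249 CPM (0.97 ± 0.08) and from 171 and 187 to 289.5 and 297 CPM (0.71 ± 0.06), and plk1 rose by 0.55 ± 0.04. Condensin, cohesin and topoisomerase II genes were 11 higher and 5 lower of 25. top2a (chromosome 10, 8619589 to 8651732), which untangles sister chromatids, was at 307 and 312 CPM with the MO and 618 and 615 CPM with E2f1 mRNA (0.99 ± 0.04). Wildtype at stage 7 was at 484 and 514 CPM. Within condensin, smc4 and ncapd2 rose by 0.63 ± 0.04 and 0.48 ± 0.03 whereas ncapg2 and ncaph were lower (−0.50 ± 0.05 and −0.52 ± 0.06). Kinesin genes (9 higher, 12 lower of 35) and kinetochore genes (15 higher, 11 lower of 38) were mixed, with knl1, the kinetochore scaffold, up by 0.57 ± 0.05 and kif24, a kinesin of the centriole, lower (−0.49 ± 0.05).

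Many RNAs stored in the egg for the germ line were higher. Germ plasm and vegetally localized transcripts, which mark the future germ cells, counted 16 higher and 3 lower of 27 (59.3 and 11.1%). Over all tested genes these shares were 22.4 and 23%. grip2 (chromosome 4, 132574064 to 132806085), which steers germ cell migration, was at 69.2 and 65.1 against 132 and 136 CPM (0.997 ± 0.06), nanos1, a translational repressor, at 31.2 and 31.4 against 55.4 and 56.6 CPM (0.84 ± 0.07), and the RNA helicase ddx25 at 158 and 155 against 240.2 and 241 CPM (0.62 ± 0.05). dnd1, which protects germ cell RNAs, rose by 0.51 ± 0.04. The E2f1 mRNA libraries lay above the MO libraries without overlap in all of these, as in 2890 of all 2892 genes called higher. Wildtype lost the germ plasm RNAs named here between stages 6 and 8 (grip2 from 223 and 208 to 85.5 and 80.6 CPM).

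Other oocyte genes counted 10 higher and 12 lower of 40 (25 and 30%), near the 22.4 and 23% of all genes. h1-8, the linker histone of the oocyte, rose by 0.46 ± 0.04 and ybx2, which packages stored mRNA, by 0.44 ± 0.06, whereas parn, the poly(A)-specific ribonuclease, was lower (−0.43 ± 0.05). Genes for RNA decay counted 17 higher and 18 lower of 44 (38.6 and 40.9%). The AU-rich element binding gene zfp36l2.2 rose from 501 and 522 to 838 and 841 CPM (0.72 ± 0.03), drosha by 0.61 ± 0.04 and upf1, of nonsense-mediated decay, by 0.70 ± 0.05. The readers of N6-methyladenosine ythdf1, ythdf2 and ythdf3, of which ythdf2 takes part in the clearance of maternal RNA in zebrafish, were lower (−0.38 ± 0.05, −0.47 ± 0.06 and −0.38 ± 0.04), and cnot11, of the CCR4-NOT deadenylase, fell from 38.4 and 40.5 to 22.6 and 24.8 CPM (−0.73 ± 0.09).

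For the transcription machinery, 35 of 84 RNA polymerase II, TFIID and Mediator genes were higher and 18 lower (41.7 and 21.4%, beside 22.4 and 23% of all genes). polr2b, the second largest polymerase subunit, rose by 0.38 ± 0.04 and tbpl1, a TBP relative needed in early frog embryos, by 0.43 ± 0.05 (149 and 149 against 204 and 199 CPM). taf4b, of TFIID, and med26, of Mediator, were lower (−0.58 ± 0.05 and −0.64 ± 0.07). Genes of pause release counted 10 higher and 14 lower of 36 (27.8 and 38.9%), and here the kinase and its cyclins fell: cdk9 from 163 and 167 to 109 and 105 CPM (−0.62 ± 0.06), and the cyclin T genes ccnt1 and ccnt2 (−0.37 ± 0.05 and −0.44 ± 0.05). The pausing factor genes nelfb and nelfcd rose by 0.37 ± 0.04 and 0.29 ± 0.06.

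Of 14 DNA methylation genes, 6 were higher and 1 lower (42.9 and 7.14%, beside 22.4 and 23% of all genes). dnmt1 (chromosome 3, 137106110 to 137122282), the maintenance methyltransferase, rose from 1031 and 1048 to 2139 and 2143 CPM (1.04 ± 0.03). The stage 7 wildtype libraries, at 1699 and 1672 CPM, lay between. Its partner uhrf1 rose by 0.29 ± 0.03 and hells, a chromatin remodeller, by 0.34 ± 0.03. Histone and histone chaperone genes counted 18 higher and 4 lower of 42, with nasp up by 0.49 ± 0.04, npm1 by 0.46 ± 0.04 and h2ac1 by 0.72 ± 0.05 (polyA selection captures only part of histone mRNA). Chromatin regulators were 19 higher and 13 lower of 62 (30.6 and 20.97%), near the shares over all genes: hdac1 and hdac3 rose by 0.27 ± 0.04 and 0.42 ± 0.06, and ezh2, the Polycomb methyltransferase, and gatad2a, of the NuRD complex, were lower (−0.30 ± 0.04 and −0.66 ± 0.06).

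Lists of stress, cell death and housekeeping genes are read against the same background of 22.4% higher and 23% lower. Apoptosis genes counted 7 higher and 6 lower of 30. Stress genes were 14 higher and 9 lower of 36, with hsp90ab1 up by 0.47 ± 0.03 and hspa8, a constitutive Hsp70 gene, lower (−0.37 ± 0.04), and innate immune genes 1 higher and 4 lower of 17. Ribosomal protein genes were 20 higher and 2 lower of 79, all by less than 2-fold (median 0.15), translation factors 22 and 13 of 66, and piRNA pathway genes 6 and 5 of 19. Nuclear genes of oxidative phosphorylation were 9 higher and 20 lower of 83, and proteasome genes 5 and 13 of 43, with the subunits psmc1 and psmc3 lower (−0.68 ± 0.08 and −0.69 ± 0.09). In the CCT chaperonin, which folds actin and tubulin, 5 of 8 subunits were lower and tcp1 was higher (99.1 and 103 against 161 and 147 CPM, 0.61 ± 0.06).

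**Figure D5:**
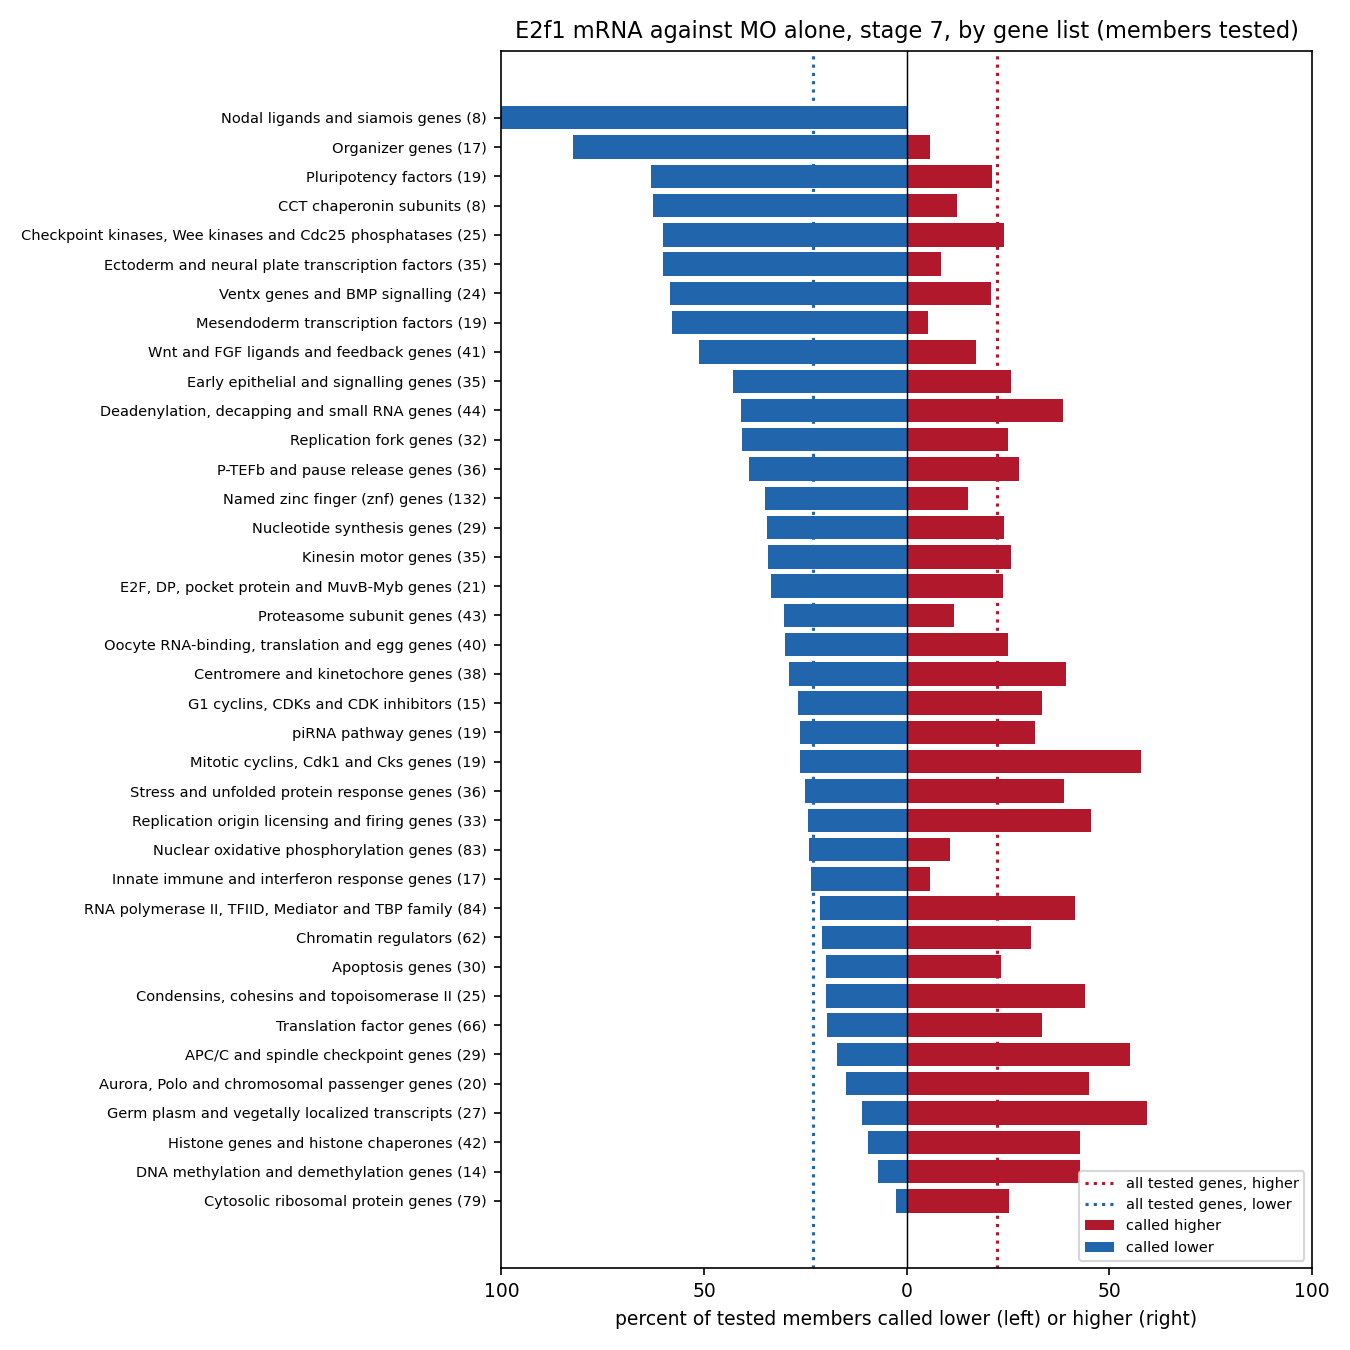
Percent of the tested members of each list shown (number in brackets) called lower (blue, leftward) or higher (red, rightward) with E2f1 mRNA at stage 7; dotted lines give the shares over all tested genes, 23% and 22.4%. Nodal and siamois genes, organizer genes and pluripotency factors head the lower side, and germ plasm transcripts and mitotic cyclins reach furthest on the higher side.

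Several of the genes with the steepest rises besides e2f1 lose RNA in wildtype. slc5a5, the iodide transporter, went from 0.374 and 0.3498 to 2.39 and 3.74 CPM (3.05 ± 0.43), and adcy8, an adenylyl cyclase, from 0.695 and 0.933 to 2.99 and 2.41 CPM (1.73 ± 0.39). ifrd1, a transcriptional co-regulator, rose from 22.1 and 22.4 to 61.6 and 55.5 CPM (1.398 ± 0.08), plbd2, a lysosomal protein gene, from 34.7 and 33.99 to 85.6 and 86.00 CPM (1.32 ± 0.07), and rab11a, a GTPase of recycling endosomes, from 14.5 and 14.6 to 37.6 and 34.2 CPM (1.302 ± 0.11). The scaffold gene iqgap3 rose from 116 and 122 to 269.9 and 269.8 CPM (1.18 ± 0.05) and the kinase gene melk by 1.07 ± 0.11. An exception was inpp5j, an inositol phosphatase gene that rises in wildtype: it was at 2.94 and 2.27 CPM with the MO, at 9.08 and 9.83 CPM with E2f1 mRNA and also at 9.15 and 8.699 CPM with deltaDBD mRNA. It was among the few genes called with both mRNAs.

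With deltaDBD mRNA few genes were called. deltaDBD mRNA against the MO alone, a comparison that shares the 2 MO libraries, gave 4 called genes (0.031% of those tested) in edgeR, with 635 (4.93%) at an unadjusted p under 0.05: e2f1, inpp5j, aff2 and b4galt1.1. Other fits called 21 genes (no count filter), 33 (only the libraries of the stage) and 49 (only the groups compared). Among genes not called with deltaDBD mRNA, its libraries held these levels: nodal3.1 at 8.297 and 6.57 CPM, ventx2.2 at 17.8 and 18.8 CPM, dnmt1 at 1122 and 1091 CPM and top2a at 323 and 330.2 CPM. None of the 1707 genes that rose 2-fold or more in wildtype was called by edgeR or by DESeq2. With only 4 calls over all tested genes, that says little about this class. In edgeR 127 of the 1707 had an unadjusted p under 0.05, a larger share than the 4.93% of all tested genes. Their median log2 fold change with deltaDBD mRNA was 0.05, and with E2f1 mRNA it was −0.55. Tested directly, E2f1 mRNA against deltaDBD mRNA gave 2914 higher and 3084 lower genes (22.6 and 23.9%). dnmt1 differed by 0.95 ± 0.03, ventx2.2 by −5.49 ± 0.23 and grip2 by 1.06 ± 0.06 in that comparison, which shares the E2f1 mRNA libraries. The e2f1 level was itself higher with E2f1 than with deltaDBD mRNA (0.51 ± 0.04). By its name deltaDBD lacks a stretch of the transcript, so these counts do not tell whether the groups held equal amounts.

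Set against stage 7 wildtype, with the E2f1 mRNA libraries shared once more, embryos with the MO and E2f1 mRNA differed in 879 higher genes (6.82%) and 799 lower genes (6.2%), and by 2-fold or more in 7 (0.0543%) and 62 (0.481%). The MO alone differed from stage 7 wildtype in 3243 genes (25.2%), in 1922 without MO replicate 2, in 1943 without wildtype replicate 1 and in 4153 with only the groups compared. The counts with E2f1 mRNA also depend on the libraries in the fit: they sum to 1678 (13%), to 3097 with only the groups compared, to 527 to 869 when any of the 4 libraries was left out and to 2858 without stage 8 E2f1 MO replicate 2. Some zygotic genes were among those below wildtype. Of Nodal and siamois genes 4 of 8 were lower and 0 higher (median −1.36). Organizer genes counted 1 lower and 1 higher of 17 (median −0.12), and mesendoderm factors 3 lower and 0 higher of 19 (median 0). Of ectoderm and neural factors 5 were lower and 3 higher of 35 (median 0.10). Most members of these last 3 lists were thus not called against wildtype. Against wildtype the log2 fold change was −1.73 ± 0.29 for nodal3.1, −2.64 ± 0.54 for sox2, −2.03 ± 0.37 for ventx2.2 and −2.19 ± 0.38 for znf33b, all called. For klf17, values of 9.32 and 9.13 against 10.2 and 12.1 CPM did not pass the test (−0.27 ± 0.14). dnmt1 was above wildtype (0.34 ± 0.03). Of the 1707 genes that rise 2-fold or more in wildtype, 469 (27.5%) were lower than in stage 7 wildtype and 5 were higher, and of the 299 that fall, 101 (33.8%) were higher and 2 lower. slc5a5 was higher than wildtype by 1.83 ± 0.37 (2.39 and 3.74 against 0.803 and 0.9104 CPM).

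At stage 8 the same mRNA, compared with the stage 8 MO group, left 405 genes higher (3.14%) and 376 lower (2.92%). The count depends on the libraries in the fit. It was 781 in all (6.06%), 3462 and 504 without stage 8 MO replicate 1 or 2, which differ from each other more than other replicates, 356 and 374 without stage 8 E2f1 mRNA replicate 1 or 2, and 151 with only the groups compared. Of the Nodal and siamois genes 7 of 8 were lower, of organizer genes 12 of 17, and of ectoderm and neural factors 20 of 35. nodal3.1 was at 13.6 and 14.1 CPM with the MO and 4.87 and 4.19 CPM with E2f1 mRNA at stage 8 (−1.61 ± 0.16), and sox2 at 17.8 and 18.7 against 3.32 and 4.66 CPM (−2.18 ± 0.15). Germ plasm transcripts were 10 higher and none lower of 27 in edgeR (2 lower at an unadjusted p under 0.05, and none in DESeq2), with grip2 at 53.7 and 43.9 against 97.3 and 101 CPM (1.02 ± 0.06). None of the mitotic cyclin, Cdk1 and Cks genes was called at stage 8 by edgeR (3 of 19 at an unadjusted p under 0.05, and none in DESeq2): cks2 was at 33.3 and 50.2 against 42.5 and 52.7 CPM. With 6.06% of all tested genes called, few calls would fall in a list of 19, so their absence says little about it. The same holds for the absence of lower germ plasm transcripts, beside 2.92% of all genes.

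A test of the difference between the stages, which uses the libraries of both, called 3563 genes (27.7%), 1836 (14.3%) as more positive and 1727 (13.4%) as more negative at stage 8. With only the libraries of the groups compared it called 1834. The log2 fold change of nodal3.1 differed by 1.64 ± 0.32, stage 8 minus stage 7, with an adjusted p of 0.000208 in edgeR. For dnmt1, top2a and cks2 the same difference was −0.67 ± 0.05, −0.56 ± 0.06 and −1.295 ± 0.19. inpp5j, high with E2f1 mRNA at both stages (8.82 and 9.43 CPM at stage 8), differed more at stage 8 (3.71 ± 0.44), where the MO libraries had 0.183 and 0.1903 CPM. On the wildtype time course the stage 8 libraries with E2f1 mRNA stood at 0.684 and 0.685, and those of the MO at 0.940 and 0.967.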

How the data were processed

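The deposited table holds whole-number counts per gene for 26 libraries, in 13 groups of 2, from polyA RNA of embryos with strand-specific preparation, per the labels. The submitters' processing notes name fastp, STAR 2.7.0e, featureCounts 2.0.1 and deepTools. The file headers record counting of fragments on the reverse strand, with both mates mapped and chimeric pairs left out, on a v10 annotation, whose coordinates are given 1-based. Coverage tracks were not used here.

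Libraries were grouped by their labels, and columns were matched to them by name. Genes passing filterByExpr entered 1 quasi-likelihood model with 13 group means and TMM scaling (edgeR 4.0.16, R 4.3.3; 13 residual degrees of freedom, biological coefficient of variation 3.93%). Benjamini-Hochberg adjustment ran over all 12883 tested genes, and an adjusted p under 0.05 was called. Fold changes are log2 ± SE. Against a group with no count, the fold is a lower bound with 3 counts in place of the group's sum. Groups of 1 to 3 counts have a ratio with a 95% interval that covers counting error only. Fitted values of such genes are no bounds. The 4 libraries compared hold 16653934 counts or more, so depth limits mainly genes of a few counts. The pipeline was tested on simulated data.

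The comparison, its gene lists and the wildtype classes were chosen with earlier results of these data known. The rule for named genes takes e2f1 and cdkn1a, the 15 largest called rises and falls of 2 CPM or more with a symbol and the same direction in all pairs of libraries, up to 6 members of smallest p per list and direction, the member of largest p, every member of lists of up to 12, 3 members of each wildtype class, all calls where under 6, and the 6 largest per direction of the stage difference and of the comparison with wildtype. Not every gene the rule takes is described, and some results are not reported here. arpc3, ppia, gsn, mpst, adgrg6 and other genes named only in the last section were chosen after their values were seen. Alternatives tried were size factors by median of ratios, DESeq2 1.42.0 (Wald test), no count filter and the replicate number as a block. Others were fewer libraries in the fit, e2f1 and cdkn1a left out, and a 4-fold threshold. Libraries of the groups compared were also left out in turn, each for the comparisons that use its group. The wildtype libraries that define the rise and fall classes and the positions along the time course were not left out singly.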

Additional observations from a re-analysis of the deposited data

Results flagged for a closer look

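The effect of E2f1 mRNA differed between stages 7 and 8 by a test of the difference itself, with 1836 genes more positive and 1727 more negative at stage 8, or 1834 in all when only the groups compared were fitted. Among called genes with a symbol, 2 CPM or more at their higher level and no overlap of the stages over pairs of libraries, the largest negative differences (stage 8 minus stage 7, log2 fold change) were −2.86 for eva1a (adjusted p = 0.000142 in edgeR), −2.71 for slc5a5, the iodide transporter gene, and −1.41 for selenop1, which encodes a selenium transport protein. They were followed by −1.38 for cfi, a complement protease gene, −1.30 for tbx6, a T-box gene of the mesoderm, and −1.30 for iglon5, a cell adhesion gene. In selenop1 the stage 7 libraries were at 9.404 and 8.92 CPM with the MO and at 17.9 and 18.4 CPM with E2f1 mRNA. Its stage 8 libraries were at 10.9 and 12.8 CPM with the MO and at 9.33 and 8.27 CPM with E2f1 mRNA. slc5a5 lost the call of its difference without stage 8 E2f1 MO replicate 1 (difference −1.001, adjusted p = 0.655 in edgeR) and with only the groups compared (0.0617), and DESeq2 gave it no adjusted p. cfi lost its call without either of 2 stage 7 libraries or 1 stage 8 library, tbx6 without any of 2 libraries of each stage, with DESeq2 (adjusted p = 0.0589) and with only the groups compared (0.0526), and iglon5 without 1 library of each stage.

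Under the same conditions the largest positive differences were in genes with no count with E2f1 mRNA at stage 7 that had counts with it at stage 8. Their mean level at stage 8 with E2f1 mRNA was 1.22 CPM for mix1, 0.847 CPM for foxi1, 0.752 CPM for hes3, 0.626 CPM for foxa4, 0.653 CPM for ventx3.1 and 0.476 CPM for ventx1.1. mix1 was at 7.797 and 6.28 CPM in the stage 8 MO libraries, and foxi1, a forkhead gene of the ectoderm, at 6.94 and 6.53 CPM, so both lay above the E2f1 mRNA libraries of that stage. The calls of the difference were lost without single libraries for hes3, foxa4, ventx3.1 and ventx1.1, to all of which DESeq2 gave no adjusted p, and for ventx1.1 also with only the groups compared (adjusted p = 0.0607 in edgeR).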

How the results depend on the processing

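In the stage 7 comparison 2228 to 3231 genes were higher and 2312 to 3350 lower over 12 alternatives, within 1.5 times of the counts given. Leaving out 1 of the 4 libraries compared gave 2228 to 2418 higher and 2312 to 2598 lower, and leaving out stage 8 E2f1 MO replicate 2 gave 3152 and 3350. Of 166 named genes, 7 changed their call under some setting (klf2, nodal, odf2, tbx6, eva1a and iglon5 lost it, and cfi gained it), and none changed direction. Replicate numbers showed no strong pairing: deviations of same-numbered libraries correlated above 0.1 in 13 of 78 pairs of groups (range −0.25 to 0.21). Whether such libraries share a clutch cannot be told from this, as the labels do not give clutches. With the replicate block, 2913 genes were higher and 2972 lower, and no count moved by over 1.5 times.

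Counts in the other comparisons depended on the libraries in the fit, and the cause was not tested. With deltaDBD mRNA 4 genes were called, against 21 with no count filter, 49 with only the groups compared, 33 with only the stage, 2 to 3 with 1 library left out and 16 without stage 8 E2f1 MO replicate 2, a setting chosen after seeing the data. The difference between stages gave 1834 with only the groups compared and 2672 to 4282 with 1 library left out. Calls at stage 8 numbered 1240 with no count filter, 151 with only the groups compared, 402 with only the stage and 356 to 3462 with 1 library left out. Against wildtype, E2f1 mRNA gave 3097 with only the groups compared, 3004 with only the stage, 527 to 869 with 1 library left out and 2858 without stage 8 E2f1 MO replicate 2. The MO against wildtype gave 1922 to 2445 with 1 library of the comparison left out (1922 without MO replicate 2, 1943 without wildtype replicate 1) and 4266 without stage 8 E2f1 MO replicate 2.

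Of genes rising 2-fold in wildtype, 71.5% were lower, against 79.0% of those rising 4-fold, 67.1% with DESeq2, 61.0 to 66.4% with 1 compared library left out and 73.9% without stage 8 E2f1 MO replicate 2. Of genes falling 2-fold, 63.9% were higher, against 43.3% of those falling 4-fold and 56.9 to 60.9% with 1 compared library left out and 64.9% without stage 8 E2f1 MO replicate 2. Mean positions along the wildtype change were 0.830 for the MO and 0.304 for E2f1 mRNA, and 0.749 and 0.359 on genes that fall, and 0.229 for E2f1 mRNA on 4-fold genes. These class and position alternatives were also chosen after seeing the data, except the 4-fold classes. Depth limits the genes with a few counts, whose folds are given as bounds or intervals.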

Other observations

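A few genes departed from the direction of their wildtype course, and those named here were chosen for their values. Of the 14 genes that rise in wildtype and were higher with E2f1 mRNA, arpc3, which encodes a subunit of the actin-nucleating Arp2/3 complex, was at 4.22 and 5.19 CPM with the MO and 9.73 and 8.37 CPM with E2f1 mRNA (0.95 ± 0.16). Its mean in stage 7 wildtype was 17.6 CPM. ppia, the cyclophilin A gene, was at 90.99 and 91.8 CPM with the MO and 124 and 121 CPM with E2f1 mRNA (0.42 ± 0.07), and its wildtype mean was 248 CPM. gsn, a gelsolin gene whose product severs actin filaments, was at 39.8 and 47.04 against 54.5 and 61.01 CPM, with 85.8 CPM in wildtype. mpst, an enzyme of sulfur metabolism, was at 36.3 and 40.98 against 51.3 and 57.5 CPM, with 89.3 CPM in wildtype. In these 4 genes the E2f1 mRNA libraries lay between the MO libraries and the wildtype mean. In mtss1l, camkv and inpp5j, also of the 14, the E2f1 mRNA libraries lay above the stage 7 wildtype mean. In mtss1l and camkv the MO libraries lay above it too.

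For 2608 genes the wildtype level moved by less than 0.2 on the log2 scale from stage 6 to stage 8. Of these, 97 were higher and 113 lower with E2f1 mRNA, and 15 in each direction by more than 0.5. Calls were thus much rarer than over all tested genes, of which 22.4% were higher and 23% lower. rbbp7, a histone-binding gene, was at 54.8 and 57.7 CPM with the MO and 86.4 and 88.1 CPM with E2f1 mRNA (0.63 ± 0.08). In wildtype it was at 134, 137 and 132 CPM at stages 6, 7 and 8. tcp1, a subunit gene of the CCT chaperonin, was at 99.1 and 103 against 161 and 147 CPM (0.61 ± 0.06), with wildtype means of 227, 221 and 216 CPM. adgrg6, an adhesion receptor gene, was lower, at 9.67 and 9.27 against 5.91 and 5.71 CPM (−0.70 ± 0.17), with 5.07 CPM in stage 7 wildtype. The mean with E2f1 mRNA was nearer to the stage 7 wildtype mean than the mean with the MO in each of these 3 genes. Further genes that changed by more than 0.5 were split. The mean with E2f1 mRNA was also the nearer one in efcab11, plekhn1, antxrl, ss18l1, gtf2e1.2 and elp5. In other genes the mean with E2f1 mRNA was the farther one. Among these were ccdc170, lnx2, gpr158, lrtm2, jag2, klf4, col9a3 and atp11a.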
